A study of Homo sapiens with 23 samples.

Results

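The 10 MAP kinase phosphatase genes DUSP1, DUSP2, DUSP4, DUSP5, DUSP6, DUSP7, DUSP8, DUSP9, DUSP10 and DUSP16 were examined in the listed chromatin loops of T47D, a luminal breast cancer cell line that carries progesterone receptor. They were chosen by name, out of 20037 protein-coding genes, and a loop was counted at a gene when either of its 5 kb bins overlapped the gene body widened by 10 kb on each side. Under this rule 4 of 9591 loops lay at the genes in the library labelled T30 and 7 of 7075 in the library labelled T0, 11 loops in all. The loops come from HiChIP, in which DNA ends that lie near each other are joined and the joined fragments are pulled down with an antibody. The labels give its target as PR, read here as progesterone receptor. A count of contacts is read here as the number of read pairs that join a pair of bins.

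The T30 library carries R5020, a synthetic progestin, in its title only as PR5020, and its dose and the unit of its time are not stated for HiChIP. The T0 library carries no hormone in its labels. Per the protocols of the series, T47D cells were held without phenol red and with hormone-stripped serum, and then without serum, before hormone. Each condition had 1 library, so no difference below has a replicate check. Exact intervals at 95% treat the genes, loops or read pairs counted as independent draws. They cover no variation between repeated libraries. The T30 list held 135538 contacts and the T0 list 127457, and how deeply each library was sequenced is unknown. Among markers of luminal cells, 11 of 14 genes lay at a loop in T30 and 10 in T0, and among basal markers 4 of 8 did in each, where 32.1% of all protein-coding genes did in T30 and 27.2% in T0. Among these markers KRT19 had 11 loops in T30 and 8 in T0, FOXA1 had 4 in T30 and 1 in T0, and EGFR had 4 in T30 and 0 in T0. ELF3 and KRT8 each had 4 in T30 and 7 in T0, CDH1 had 1 in T30 and 4 in T0, and TP63 had 0 in T30 and 6 in T0. Loops do not measure expression, so these counts do not check the line.

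MAP kinase phosphatases switch off ERK, JNK and p38 by removing phosphate from the threonine and the tyrosine of the kinase activation loop. DUSP1, DUSP2, DUSP4 and DUSP5 are nuclear enzymes whose genes are induced within a short time of stimulation. DUSP6, DUSP7 and DUSP9 are cytoplasmic and act mainly on ERK, and DUSP8, DUSP10 and DUSP16 act mainly on JNK and p38. DUSP1 is a known target of the glucocorticoid and progesterone receptors, and the progesterone receptor can itself switch on the ERK pathway in breast cancer cells.

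In T30, 2 of the 10 genes had a listed loop, DUSP1 and DUSP5. In T0, 5 of the 10 had one, namely DUSP1, DUSP4, DUSP5, DUSP6 and DUSP10. The 2 genes of T30 were thus among those of T0, and DUSP2, DUSP7, DUSP8, DUSP9 and DUSP16 had none in either library. The T30 share of 20.0% (exact 95% interval 2.52 to 55.6) stands beside 32.1% of all protein-coding genes, and the T0 share of 50.0% (18.7 to 81.3) beside 27.2%. Both intervals include the share of all genes, so neither count stands apart from it at this number of genes. Among genes of at most 100 kb, a length that every one of the 10 is under, the shares were 31.5% in T30 and 26.0% in T0. A loop in both libraries was listed at 20.0% of the genes, against 17.9% of all genes, and in neither at 50.0%, against 58.6%.

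Comparing the libraries gene by gene, 1 gene had more loops in T30 (DUSP1), where 20.8% of all genes did, and 3 had fewer (DUSP4, DUSP6 and DUSP10), where 15.4% did. The exact intervals of these shares, 0.253 to 44.5% and 6.67 to 65.2%, hold the shares of all genes. The median difference over the 10 genes, T30 minus T0, was 0 loops, as over all genes. By class, the nuclear genes had 4 loops in each library, at 2 genes in T30 and at 3 in T0. ERK-selective genes had 0 loops in T30 and 1 in T0, and the JNK and p38 class 0 and 2.

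**Figure D1:**
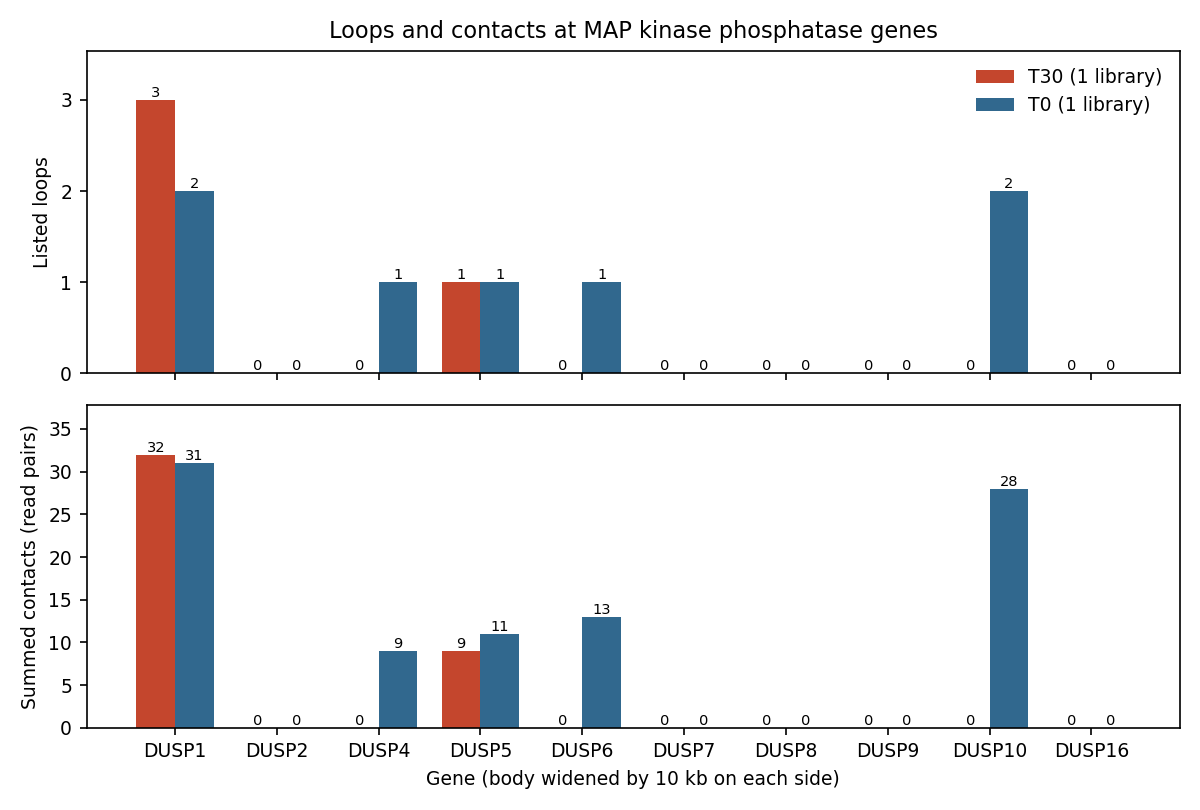
Listed loops (upper panel) and their summed contacts in read pairs (lower panel) at each of the 10 genes, with T30 on the left and T0 on the right of each pair of bars, 1 library each and no error bars. DUSP1 and DUSP5 have bars in both libraries, DUSP4, DUSP6 and DUSP10 in T0 alone, and the other 5 genes have none.

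Contacts per loop were between 9 and 12 in T30, with a median of 10, against a median of 13 over the whole T30 list. In T0 they were between 9 and 18, with a median of 13, against 14 over the whole list. Both medians, of only 4 loops in T30 and 7 in T0, were thus below those of the whole lists. Contacts were not compared at equal spans. No loop at these genes in T30 exceeded 12 contacts, which 50.8% of T30 loops did, and none in T0 exceeded 18, which 30.6% of T0 loops did. Spans were 40 to 150 kb in T30 with a median of 125 kb, and 60 to 410 kb in T0 with a median of 190 kb. The medians of the whole lists were 80 kb in T30 and 190 kb in T0.

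The lists were also not cut at the same p-value, since the largest one listed was 2.84e-05 in T30 and 0.000233 in T0. Of the 7 loops at these genes in T0, 3 had a p-value within the T30 limit, at DUSP4, DUSP6 and DUSP10. With the T0 list held to that limit, the counts were 4 loops at 2 genes in T30 and 3 loops at 3 genes in T0. The margin was narrow at DUSP5, whose T0 loop had a p-value of 2.92e-05, just above the limit of 2.84e-05, and the same bins as its T30 loop. Under that setting 32.1% of all genes had a loop in T30 and 19.4% in T0.

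DUSP1, the most widely acting of the nuclear phosphatases, had 3 loops in T30 and 2 in T0. That was the highest count of the 10 genes in T30, and in T0 DUSP10 had as many. Their summed contacts were nearly equal, with 32 in T30 and 31 in T0. The gene lies on chromosome 5 from 172768096 to 172771195 (hg38) on the minus strand, and its RefSeq start site at 172771195 falls in the bin from 172770001 to 172775000. That bin held 2 loop ends in T30 and 1 in T0. In T30 it met the bin at 172875001, over 105 kb, with 10 contacts, and the bin at 172920001, over 150 kb, also with 10. In T0 it met the bin at 172910001, over 140 kb, with 13 contacts. The remaining loops started in the flank and not in the gene. In T30 this was a loop of 12 contacts over 40 kb from the bin at 172780001, 8.81 kb from the gene, and in T0 one of 18 contacts over 60 kb from the bin at 172775001, 3.81 kb from it.

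All 5 loops of DUSP1 ran to higher coordinates, which is upstream of the gene. Of their far ends, 4 lay inside ERGIC1, whose product cycles between the endoplasmic reticulum and the Golgi, and the fifth lay 9.25 kb outside it. ERGIC1 spans 172834251 to 172952683 and was the only other protein-coding gene whose widened body shared loops with DUSP1. It shared all 5 of them, which were 38.5% of its own 13 loops in the lists together. ERGIC1 itself had 10 loops with 105 contacts in T30 and 3 loops with 41 contacts in T0.

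The bin at 172875001 inside ERGIC1 held 4 loop ends with 44 contacts in T30 and 0 in T0. Around DUSP1, loops with an end within 100 kb numbered 11 in T30 and 5 in T0. Of these, 5 in T30 and 1 in T0 passed over DUSP1 without ending at it. The 5 in T30 began between the bins at 172700001 and 172730001 and ended in ERGIC1 between those at 172875001 and 172935001, with 9 to 11 contacts each. The one in T0 joined 172710001 to 172955001 and had 10 contacts. Widening by 100 kb was tried only once these values were known.

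**Figure D2:**
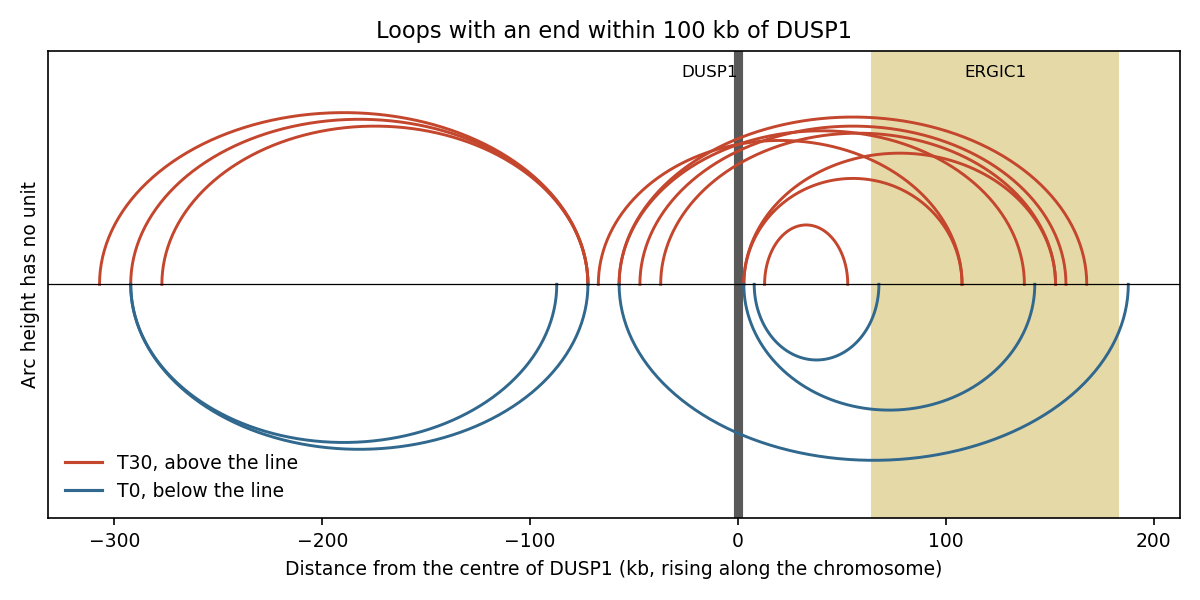
Loops with an end within 100 kb of DUSP1, T30 above the line and T0 below, by distance from the centre of DUSP1 in kb. The dark band is DUSP1 and the pale band ERGIC1, and the 11 arcs of T30 include 5 that pass over DUSP1 into ERGIC1, against 1 that passes over it among the 5 arcs of T0.

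Counting loops as shared when the cluster ranges at both ends overlapped, 2 of the 4 loops in T30 (50.0%, exact 95% interval 6.76 to 93.2) and 2 of the 7 in T0 (28.6%, 3.67 to 71.0) were shared. Over the whole lists the shares were 16.4% of T30 loops and 22.2% of T0 loops, inside these intervals. By span, 28.8% of all T0 loops of 100 to 200 kb were shared, and 18.9% of those of 200 to 500 kb. The T0 loops at DUSP4, DUSP6 and DUSP10, none of them shared, spanned 190 to 410 kb. The shared contacts were the longest loop of DUSP1 and the loop of DUSP5.

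DUSP5, a nuclear phosphatase that acts on ERK, had the only loop of the 10 genes with the same bins in both libraries. It joined the bin from 110495001 to 110500000 on chromosome 10, which holds the lower end of the gene (110497907 to 110511533), to the bin at 110350001, over 145 kb. The loop had 9 contacts in T30 and 11 in T0. No start site of DUSP5 was available here, so whether its bin holds the start was not determined. No annotated gene overlapped the far bin, and the nearest other protein-coding gene was SMNDC1, a splicing factor gene, at 45.1 kb. Over 1389 matched loops the median ratio of contacts, T30 over T0, was 0.667, and relative to it the log2 ratio of DUSP5 was 0.30 (95% interval -1.15 to 1.70). That of the shared DUSP1 loop, with 10 contacts in T30 and 13 in T0, was 0.21 (-1.14 to 1.51). An exact two-sided binomial test with Benjamini-Hochberg adjustment over all matched loops gave an adjusted p of 1 for each. It compares the libraries and not the conditions. Over all matched loops the test called 1.58% higher and 0.072% lower in T30, and 0 of these 2. The intervals allow a difference of more than 2-fold in either direction at both loops.

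Start sites were available for 8 of the 10 genes, not for DUSP4 and DUSP5, whose loop bins could not be placed against one. Of those 8, a loop end lay over the start of the gene at DUSP1, DUSP6 and DUSP10. Their promoter windows are shown for that reason, from 250 bases before to 50 after the RefSeq start site (GRCh38.p14, minus strand), written 5′ to 3′. Capitals mark matches on either strand to the progesterone receptor half-site TGTTCT, the cAMP response element TGACGTCA, its half-site TGACG, the AP-1 site TGANTCA and the CArG box of serum response.
DUSP1, chr5:172771146-172771445: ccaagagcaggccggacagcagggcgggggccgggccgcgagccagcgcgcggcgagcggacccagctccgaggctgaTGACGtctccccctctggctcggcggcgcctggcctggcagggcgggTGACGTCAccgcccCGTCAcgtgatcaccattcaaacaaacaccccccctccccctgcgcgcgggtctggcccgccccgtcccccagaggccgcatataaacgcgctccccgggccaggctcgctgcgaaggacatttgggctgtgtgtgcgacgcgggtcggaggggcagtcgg
DUSP6, chr12:89352452-89352751: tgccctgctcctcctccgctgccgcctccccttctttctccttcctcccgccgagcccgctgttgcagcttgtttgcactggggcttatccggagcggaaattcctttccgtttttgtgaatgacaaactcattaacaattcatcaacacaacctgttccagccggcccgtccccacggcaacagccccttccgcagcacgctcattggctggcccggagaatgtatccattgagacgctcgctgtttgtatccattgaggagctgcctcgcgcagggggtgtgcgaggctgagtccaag
DUSP10, chr1:221742040-221742339: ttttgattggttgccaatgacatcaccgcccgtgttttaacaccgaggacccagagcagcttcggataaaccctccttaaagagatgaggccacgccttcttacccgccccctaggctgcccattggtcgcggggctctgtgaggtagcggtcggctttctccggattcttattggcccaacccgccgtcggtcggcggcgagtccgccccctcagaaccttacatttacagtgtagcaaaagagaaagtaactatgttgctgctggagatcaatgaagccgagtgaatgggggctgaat
The DUSP1 window holds 1 full cAMP response element, at -125 to -118 with the start site as 0, which overlaps a half-site on each strand, and further half-sites at -172 to -168 and -111 to -107. The windows of DUSP6 and of the upper DUSP10 start site hold no match to these letters.

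RefSeq windows were found for 8 of the 10 genes, 10 windows in all, since DUSP9 and DUSP10 have a second start site. The full cAMP response element is in those of 2 genes, DUSP1 and DUSP8, and in 1.85% of 35116 promoter windows. DUSP8 holds it at -118 to -111 and at -74 to -67, and had no loop in either library. Its half-site is in the windows of 3 genes, DUSP1, DUSP8 and DUSP10 (at the lower start site, 221736900), and in 24.6% of all windows. The receptor half-site is in that of DUSP9 alone, at -216 to -211 from the start site at 153642441, and in 14.8% of all. None of the 10 windows holds an AP-1 site or a CArG box, which 7.71% and 1.29% of all windows do. GC content was 73.3% at DUSP1, 58.3% at DUSP6 and 55.0% in both windows of DUSP10. In the windows of the genes with no loop it was between 73.3% at DUSP16 and 78.3% at DUSP8, and the median over all windows was 58.7%. These matches are descriptions of the sequence, and binding in the windows was not measured apart from the loops.

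DUSP6, the cytoplasmic ERK phosphatase that ERK signalling itself induces, had 0 loops in T30 and 1 in T0. The T0 loop had the smallest p-value of the 11, 8.57e-07, with 13 contacts. It joined the bin from 89350001 to 89355000 on chromosome 12, which holds the start site at 89352501 of the window printed above, to the bin at 89055001. The loop spans 295 kb, and its far bin lies on the downstream side of the gene and overlaps no annotated gene. The DUSP6 body (89347235 to 89352501) also lies partly within the readthrough gene POC1B-DUSP6 (89348065 to 89526047), so the loop cannot be given to one of them alone. By the same rule the readthrough gene had 2 loops in T30 and 4 in T0.

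The far bin at 89055001 had a second loop in T0, with 11 contacts, to the bin at 89525001 over 470 kb, which passed over DUSP6. Neither bin of the T0 loop, nor any bin within 10 kb of them, was a loop end in T30. The closest T30 loop joined 89020001 to 89525001 over 505 kb with 10 contacts. It too passed over DUSP6, and in all 2 loops in T30 and 3 in T0 did so. Within 500 kb of DUSP6 the lists held 3 loops in T30 and 7 in T0, where T30 listed 1.36 loops per T0 loop over the genome. That ratio changed with span. T30 listed 3024 loops of 20 to 50 kb against 360 in T0, but 1491 of 200 to 500 kb against 2523. From 500 kb up it listed 305 against 898. Chromosome 12 as a whole also had fewer loops in T30, with 574 in T30 and 623 in T0.

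DUSP7 and DUSP9, the other cytoplasmic ERK phosphatases, had no listed loop. DUSP7 on chromosome 3 (52048919 to 52056571) lay 78.9 kb from the nearest loop end in T30 and 148 kb in T0. DUSP9 on chromosome X (153642441 to 153651326) lay 164 kb from the nearest in T30 and 33697 kb in T0. Chromosome X held 52 loops in T30 and 32 in T0, fewer than any other chromosome that carries one of the 10 genes.

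DUSP10, a phosphatase of JNK and p38 that can act in the nucleus and the cytoplasm, had 0 loops in T30 and 2 in T0. Both T0 loops left the bin from 221740001 to 221745000 on chromosome 1, which holds the start site at 221742089 of the window printed above. One met the bin at 221550001, over 190 kb, with 15 contacts, and the other the bin at 221540001, over 200 kb, with 13. Their far bins start 10 kb apart. The far bins overlap no protein-coding gene, and the nearest one other than DUSP10 was HLX, a homeobox gene, at 655 kb and 665 kb.

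The far bin at 221540001 was listed again in T30, but joined to the bin at 222170001 over 630 kb, with 9 contacts, in a loop that passed over DUSP10. No loop end of T30 lay within 10 kb of the DUSP10 start bin. Within 2500 kb of DUSP10 the lists held 18 loops in T30 and 24 in T0. DUSP6 and DUSP10 were the only 2 of the 10 genes with fewer loops in T30 at that radius, and the other 8 had more, with 130 loops in T30 and 102 in T0 summed over the 10. The same count was not made over all genes, and T30 listed 1.36 loops per T0 loop over the genome. At spans from 200 kb up, though, T30 listed fewer loops than T0. Whether the difference in these surroundings has a part in the T0 loops of DUSP6 and DUSP10 was not tested.

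DUSP8 and DUSP16, the other phosphatases of JNK and p38, had no listed loop. DUSP8 on chromosome 11 (1554051 to 1572848) lay 122 kb from the nearest loop end in both libraries, with 8 loops within 500 kb in T30 and 5 in T0. DUSP16 on chromosome 12 (12473282 to 12562863) is the longest of the 10 genes at 89582 bp. It lay 2073 kb from the nearest loop end in T30 and 3027 kb in T0, farther than any other of the 10 genes in T30.

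**Figure D3:**
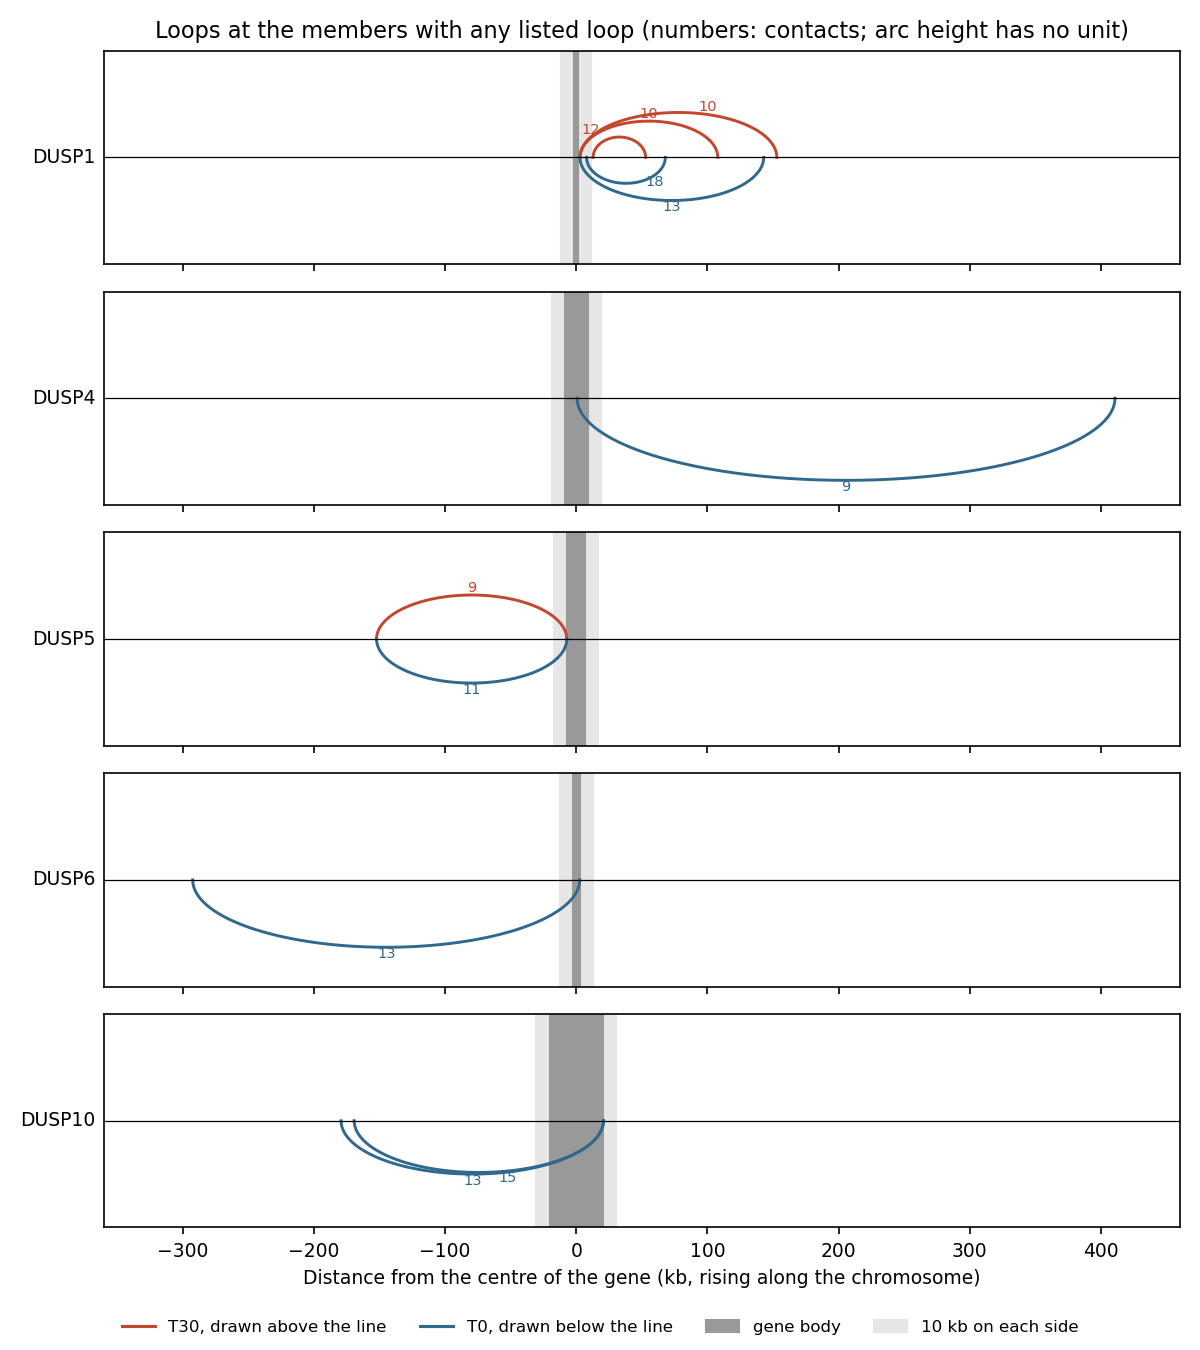
Loops at the 5 genes with a listed loop, by distance from the centre of each gene in kb, T30 above the line and T0 below, with contacts beside each arc. The DUSP5 loop mirrors itself between the libraries, the DUSP1 loops all run to the right, and DUSP4, DUSP6 and DUSP10 have arcs below the line only.

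DUSP4, a nuclear phosphatase of ERK and JNK, had 0 loops in T30 and 1 in T0. The T0 loop was the longest of the 11, at 410 kb, and had 9 contacts. It joined a bin in the gene body (29340001 to 29345000; gene 29333064 to 29350684, chromosome 8) to the bin at 29750001, which overlaps the long noncoding RNA gene LINC02099. The nearest other protein-coding gene to that bin was SARAF, a regulator of calcium entry, at 308 kb. The far bin was a loop end in T30 as well, joined there to the bin at 29805001 over 55 kb with 9 contacts. In T30 the loop end nearest to DUSP4 lay 73.1 kb away. DUSP2, the nuclear phosphatase first described in activated lymphocytes, lies on chromosome 2 (96143169 to 96145440). It lay 265 kb from the nearest loop end in T30 and 2500 kb in T0.

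**Figure D4:**
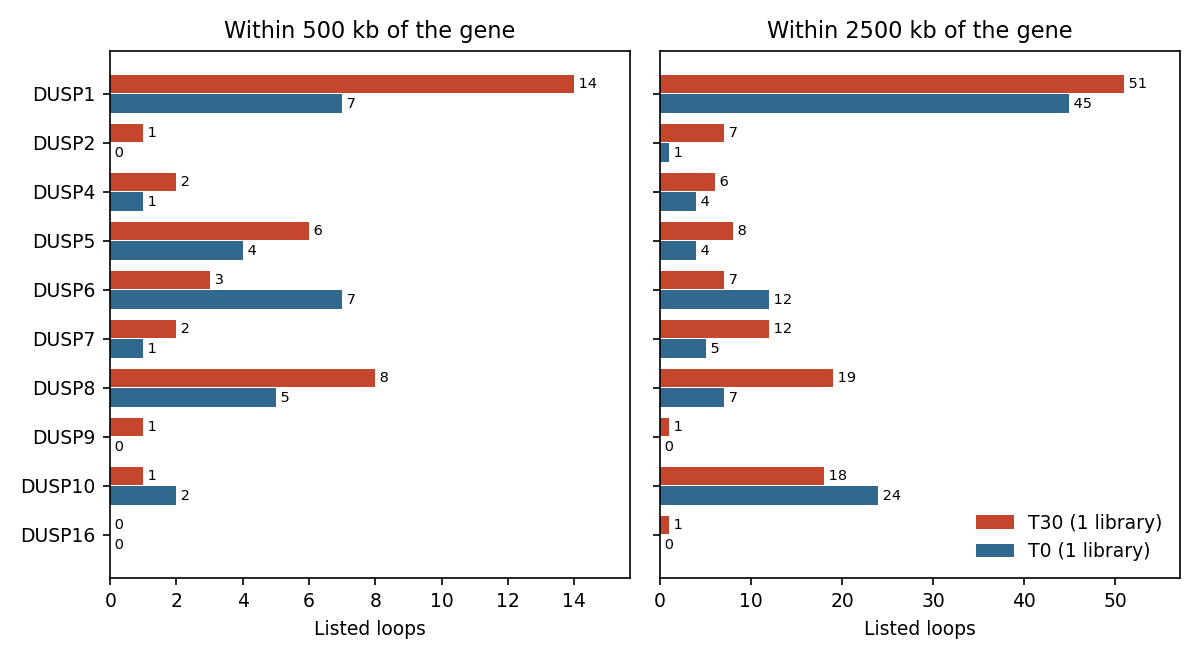
Listed loops with an end within 500 kb (left) and 2500 kb (right) of each gene, T30 above T0, 1 library each and no error bars. DUSP1 has the most at the wider radius, with 51 in T30 and 45 in T0, while at the narrower one it has 14 in T30 and in T0 shares 7 with DUSP6, and DUSP6 and DUSP10 are the genes with shorter bars in T30.

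Other genes of the pathway were read from lists in the same way, beside the 32.1% and 27.2% of all genes at a loop. The rule counts loops over the whole gene body, and these shares were not matched to the lists for gene length. Some genes of the lists are long, such as KSR2 at 515979 bp and KSR1 at 169988 bp. Of 14 MAP kinase genes, 7 had a loop in T30 and 6 in T0, 4 of them in both. MAPK11 and MAPK12, which encode p38 kinases and lie side by side on chromosome 22, had 5 and 4 loops in T30, 4 of which were the same loops, and 1 and 0 in T0. MAPK8, the gene of the kinase JNK1, had 0 loops in T30 and 3 in T0. The summed loops of the list were 15 in T30 and 8 in T0. Such sums add up the loops of each gene, so a loop at more than 1 gene is counted at each. The T30 sum thus counts the 4 loops common to MAPK11 and MAPK12 at both genes.

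Of 27 kinases and adaptors above the MAP kinases, 12 had a loop in T30 and 10 in T0. KSR1, a scaffold of the RAF, MEK and ERK cascade, had 8 loops in T30 and 0 in T0, while its relative KSR2 had 6 in T30 and 14 in T0. GRB2, the adaptor that couples receptors to SOS, had 4 in T30 and 10 in T0. SOS2, an exchange factor of RAS, and MAP2K6, a kinase of p38, each had 1 in T30 and 4 in T0. The summed loops were 35 in T30 and 48 in T0.

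Of 16 other inhibitors of the pathway, 8 had a loop in T30 and 6 in T0. SPRED2, which restrains RAS signalling to ERK, had 4 loops in T30 and 0 in T0, and PTPRR, a tyrosine phosphatase of ERK, had 1 in T30 and 5 in T0. Of 20 genes of the immediate early response and its factors, 10 had a loop in T30 and 11 in T0. ATF3, a stress-induced factor, had 5 in T30 and 1 in T0, and ETV4, an ETS factor downstream of ERK, had 0 in T30 and 3 in T0. Of the MAP kinase genes 5 had more loops in T30 and 2 fewer, and of the kinases and adaptors above them 2 had more and 6 fewer. Of the other inhibitors 5 had more and 6 fewer, and of the immediate early genes 6 had more and 4 fewer. Among all protein-coding genes 20.8% had more loops in T30 and 15.4% had fewer. The median difference in loops was 0 in each of these lists, as over all genes.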

How the data were processed

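HiChIP loops of 2 T47D libraries, labelled T30 and T0, were used, and the rest of the 23 samples were not analysed here. The deposited contacts are headed only cc, and were read here as raw counts of read pairs joining 5 kb bins. The p-values and q-values are the authors', corrected for bias according to the deposited headers. Listed loops have q up to 0.05, with near contacts merged. The submitters' processing notes name Bowtie, hg38 and GRCh38, with no role; whether replicates were pooled is not given in the sources used here.

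Genes came from RefSeq (GRCh38.p14), and all 10 were found. Partners of a gene are the distinct bins at the other ends of its loops. Distances run from the gene body to the nearest bin. Loops were matched once each where their cluster ranges met by 1 bp or more at each end. The median ratio was the null of a two-sided exact binomial test, adjusted by Benjamini-Hochberg at 0.05. The steps were tested on simulated data. Motifs were searched in RefSeq windows; those of DUSP4 and DUSP5 were not used here.

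The members, lists and alternatives were chosen with earlier results of these data known, and the phosphatase classes after their values were seen. Named are all 10 genes, the genes at their far ends, and list genes that differ by 3 or more loops. Tools were scipy 1.17.1, pandas 2.3.3, numpy 2.4.6 and, for plots, matplotlib 3.10.9, under Python 3.11.15.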

Additional observations from a re-analysis of the deposited data

How the results depend on the processing

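The difference in loops at the 10 genes, 4 in T30 and 7 in T0, rests on few loops. T0 kept more loops with genes not widened or widened by 2.5, 25 or 50 kb, at q under 0.01, with at least 10 contacts, with spans of at least 20 kb and with lists of equal length. The difference, T30 minus T0, was -1 with genes widened by 50 kb and -5 with lists of equal length. It turned round in the 2 alternatives added after the data were seen, to 1 with the lists cut at equal p-values and to 3 with genes widened by 100 kb. At q under 0.01, T30 kept 1 loop at 1 gene and T0 kept 3 loops at 3 genes, where 21.9% and 19.4% of all genes had a loop. With at least 10 contacts, T30 had 1 gene and T0 had 4, beside 29.2% and 25.6% of all genes. With lists of equal length T30 had 2 loops at 1 gene, and 0 genes had more loops in T30. The shares of all genes were then 26.1% in T30 and 27.2% in T0. At equal p-values T0 had 3 loops at 3 genes, beside 19.4% of all genes, and 2 genes had more loops in T30. With genes widened by 100 kb, T30 had 14 loops at 4 genes and T0 had 11 loops at 5 genes. At that width 55.0% of all genes had a loop in T30 and 49.3% in T0. DUSP1 alone had 11 of these loops in T30 and 5 in T0. In all 2 genes had more in T30 and 3 had fewer. Counting only identical bins, 1 loop was shared in each library. Fewer loops in T30 were counted at 3 or 4 genes under every one of these settings. The log2 contact ratio of the 2 matched loops changed sign, with no call, when not scaled by the median: DUSP1 gave -0.38 unscaled and -0.47 by summed contacts, and DUSP5 gave -0.29 and -0.38. The DUSP1 pair has no value among identical bins. No paired analysis was possible because each condition had 1 HiChIP library. Depth beyond the listed contacts is unknown, so a gene with no listed loop may have contacts below the authors' threshold.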

Other observations

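Atypical dual-specificity phosphatases, the smaller relatives of the 10 genes that lack the kinase-binding domain, were counted in the same way. Of 17 genes, 5 had a loop in T30 and 4 in T0, 2 of them in both, with 10 summed loops in each library. Of all protein-coding genes 32.1% had a loop in T30, 27.2% in T0 and 17.9% in both. DUSP3, whose product can act on ERK and JNK, had 2 loops with 27 contacts in T30 and 6 loops with 119 contacts in T0. STYXL1, a catalytically inactive relative, had 5 loops with 59 contacts in T30 and 1 loop with 20 contacts in T0. These are values of 1 library each, with no replicate check.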
